A study of Mus musculus with 42 samples.

Results

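A set of 10 genes that pace the step from G1 to S phase was followed in microglia, the resident macrophages of the brain. They were taken by name: the D-type cyclins Ccnd1, Ccnd2 and Ccnd3, their kinases Cdk4 and Cdk6, the kinase target Rb1, the kinase inhibitors Cdkn1a and Cdkn1b, and the stress-inducible genes Gadd45b and Gadd45g. All 10 have a row in both deposited count tables, among 24421 rows for whole brain and 53546 rows for cortex and hippocampus.

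The study profiled CD11b+CD45lo microglia of C57BL/6 mice by bulk RNA sequencing and asked how the gut microbiota and acetate in the drinking water affect them. The 42 libraries fall into 11 groups. Whole brain of wild-type (WT) mice aged 6 to 12 weeks gave 3 libraries from specific-pathogen-free (SPF) and 5 from germ-free (GF) housing; their titles carry the tags 8w and F. All other mice were 16 weeks old. WT cortex gave 4 libraries each of SPF, GF and GF mice on acetate for 8 weeks (GF+acetate). Hippocampus gave 4 SPF, 3 GF and 4 GF+acetate libraries in WT mice, and 4, 3 and 4 in 5xFAD mice, which carry mutant human transgenes driven in neurons by the Thy1 promoter and deposit amyloid. The labels also mention a GF group on acetate for 4 weeks and do not say which libraries that is. A library carries its condition and its mouse's number as a name, such as GF529; GFA stands for GF+acetate.

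D-type cyclins bind and switch on CDK4 and CDK6 when growth factors or other signals reach a resting cell. The active kinases phosphorylate the retinoblastoma protein (encoded by Rb1), which then releases E2F transcription factors and lets the cell enter S phase. The inhibitors p21 (Cdkn1a) and p27 (Cdkn1b) bind cyclin-kinase complexes and hold the cycle, p21 as a main target of p53. GADD45 proteins are induced by stress, bind p21 and CDK1, and activate the p38 and JNK kinase pathway through MEKK4. Adult microglia divide slowly and are maintained by local self-renewal that depends on CSF1 receptor signalling.

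The promoters of the 3 genes on which most results turn, Ccnd3, Cdkn1a and Gadd45g, are shown first. Sequences are from RefSeq (GRCm38.p6) and cover the 250 bases before an annotated start, read 5′ to 3′ on the plus strand, which is the coding strand of all 3 genes. Ccnd3 has windows at chr17:47504801-47505050 (start 1) and chr17:47593217-47593466 (start 2), Cdkn1a at chr17:29090729-29090978 (start 1) and chr17:29093519-29093768 (start 2), and Gadd45g at chr13:51846425-51846674. Capitals mark matches to any of 9 short motifs searched on both strands.
Ccnd3 start 1: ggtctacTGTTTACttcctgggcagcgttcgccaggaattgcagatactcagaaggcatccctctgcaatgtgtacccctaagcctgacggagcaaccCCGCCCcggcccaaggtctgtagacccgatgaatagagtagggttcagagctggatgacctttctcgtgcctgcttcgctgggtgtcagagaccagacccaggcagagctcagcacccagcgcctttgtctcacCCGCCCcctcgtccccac
Ccnd3 start 2: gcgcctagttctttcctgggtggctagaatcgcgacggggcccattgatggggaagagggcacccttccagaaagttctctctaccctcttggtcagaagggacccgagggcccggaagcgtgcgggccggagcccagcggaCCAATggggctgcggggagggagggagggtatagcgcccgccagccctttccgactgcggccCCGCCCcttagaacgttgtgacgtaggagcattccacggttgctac
Cdkn1a start 1: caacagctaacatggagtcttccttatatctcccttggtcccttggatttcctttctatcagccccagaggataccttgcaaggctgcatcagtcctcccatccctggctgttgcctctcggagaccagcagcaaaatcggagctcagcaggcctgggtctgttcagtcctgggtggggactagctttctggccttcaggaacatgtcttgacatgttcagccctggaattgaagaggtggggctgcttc
Cdkn1a start 2: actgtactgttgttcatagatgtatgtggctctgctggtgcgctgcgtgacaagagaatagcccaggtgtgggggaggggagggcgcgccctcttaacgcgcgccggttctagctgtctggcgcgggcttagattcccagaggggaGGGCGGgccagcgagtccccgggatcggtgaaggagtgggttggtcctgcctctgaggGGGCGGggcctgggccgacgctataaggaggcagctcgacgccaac
Gadd45g: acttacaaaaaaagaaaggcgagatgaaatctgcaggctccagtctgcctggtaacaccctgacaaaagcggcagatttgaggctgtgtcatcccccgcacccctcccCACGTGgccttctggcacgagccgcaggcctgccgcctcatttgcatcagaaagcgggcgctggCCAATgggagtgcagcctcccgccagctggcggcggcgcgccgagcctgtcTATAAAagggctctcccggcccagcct

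The motifs were the E-box CACGTG, the GC box GGGCGG, the E2F site TTTNNCGC, the FOXO site TGTTTAC, the AP-1 site TGANTCA, the cAMP response element TGACGTCA, the glucocorticoid receptor core AGAACA, the TATA box TATAAA, and the CCAAT box, spelled as it is named. No 2 of the marked matches overlap. Ccnd3 start 1 held 2 GC boxes, at -152 and -18 from the start, and 1 FOXO match at -243. Start 2 of Ccnd3 held 1 GC box at -46 and 1 CCAAT box at -108. Cdkn1a start 1 matched none of the 9, and its start 2 held 2 GC boxes, at -104 and -46. No p53 site was among the 9 motifs, so the absence of a mark does not bear on p53 sites. Gadd45g had 1 E-box at -142, 1 CCAAT box at -78 and 1 TATA box at -27. Among 32851 RefSeq windows of the same length, 32.7% held a GC box, 33.8% a CCAAT box, 12.4% a TATA box, 6.02% an E-box and 3.17% the FOXO match. The E2F site was in 4.28% of windows, the AP-1 site in 6.75%, the cAMP response element in 1.55% and the glucocorticoid receptor core in 16.1%. In all, 7 of the 10 genes had a window, 9 windows together. A match describes letters only, and the deposited data do not bear on binding.

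Libraries held 19329304 to 25366393 counts in whole brain, 15790383 to 23860490 in cortex and 5743891 to 22532410 in hippocampus, where WT SPF4 and 5xFAD SPF2142 were the shallow libraries. Whole-brain and other libraries differ in age and in sex-linked genes (Xist at 95.1 to 193 CPM, counts scaled to a library total of 1000000, in whole brain and at most 3.31 CPM elsewhere) and come from separate tables, so levels are compared only within a table. P2ry12, a purine receptor that marks microglia, stood at 3855 CPM or more in every library. Neutrophil markers summed to 250.7 CPM in hippocampus WT GF532 and 280 CPM in 5xFAD SPF2153, to 183.9 CPM in whole-brain GF4 and 30 CPM in whole-brain GF1, and to 16.4 CPM in cortex GFA524, and to under 1 CPM in the other libraries. Erythroid markers summed to 70.2 CPM in 1 hippocampus WT SPF library, SPF3. Hippocampus GF530 and GFA518 had fewer detected genes than their group.

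Each gene was tested with edgeR's quasi-likelihood test on all genes of a tissue, and all adjusted p-values below are Benjamini-Hochberg values from it. Levels are CPM with the SD over libraries. Differences are fitted log2 values with their standard error (SE), and a gene is called at an adjusted p under 0.05. Over 21 comparisons, 209 of the 210 gene and comparison pairs could be tested and 8 were called, 2 higher and 6 lower, in 5 comparisons. These were all of Ccnd3, Cdkn1a, Gadd45g or Ccnd1. The fitted differences of all genes centred near 0 (median -0.06 to 0.01 over comparisons). In bulk RNA such as this, fewer cells of a type and less RNA per cell cannot be told apart.

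Counted by comparison, GF against SPF called 0 of 9 tested genes in whole brain (1.99% of 11332 genes called), with 0 at an unadjusted p under 0.05 and 0 by DESeq2. In cortex GF was lower for 1 of 10 genes, Cdkn1a (0.84% of 15113 genes called lower, 1.71% called in all). In WT hippocampus GF against SPF called 0 of 10 (0.727% of 17063), with 4 at an unadjusted p under 0.05 and 2 by DESeq2. In 5xFAD hippocampus it called 3 of 10, all lower: Ccnd1, Cdkn1a and Gadd45g (0.914% called lower, 1.82% in all). GF+acetate against GF called 2 of 10 in cortex (0.973% of all genes), Ccnd3 lower (0.523% called lower) and Gadd45g higher (0.45% called higher), and 1 of 10 in WT hippocampus, Ccnd3 lower (0.264% called lower, 0.492% in all). In 5xFAD hippocampus it called 0 of 10 (0.082%), with 3 at an unadjusted p under 0.05 and 0 by DESeq2.

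GF+acetate against SPF called 0 of 10 in cortex (0.364%), WT hippocampus (0.123%) and 5xFAD hippocampus (0.0527%), with 1, 1 and 2 genes at an unadjusted p under 0.05 and 0, 0 and 1 by DESeq2. 5xFAD against WT called 0 of 10 in SPF (0.568%), GF (0.756%) and GF+acetate (2.51%) hippocampus, with 2, 1 and 3 at an unadjusted p under 0.05 and 0, 1 and 0 by DESeq2. The 5xFAD and WT responses to GF, to acetate and to both differed at the threshold for 0 of the 10 genes by edgeR, and 0% of the 17063 genes tested were called in each. At an unadjusted p under 0.05 these contrasts held 1, 1 and 2 of the 10, and DESeq2 called 1, 0 and 0. Because few genes passed in single hippocampus comparisons, the WT and 5xFAD differences were also averaged in the same model, a contrast chosen after the values were seen. Averaged over genotypes, GF against SPF called 3 of 10 genes (4.67% of all genes), Ccnd3 higher (2.06% of all genes called higher) and Cdkn1a and Gadd45g lower (2.61% called lower). GF+acetate against GF then called 1, Ccnd3 lower (0.92% called lower, 1.85% in all), and GF+acetate against SPF 0 (0.264%), with 1 at an unadjusted p under 0.05 and 0 by DESeq2. GF against SPF and GF+acetate against GF share their GF libraries, so the 2 sets of differences are not independent.

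**Figure D1:**
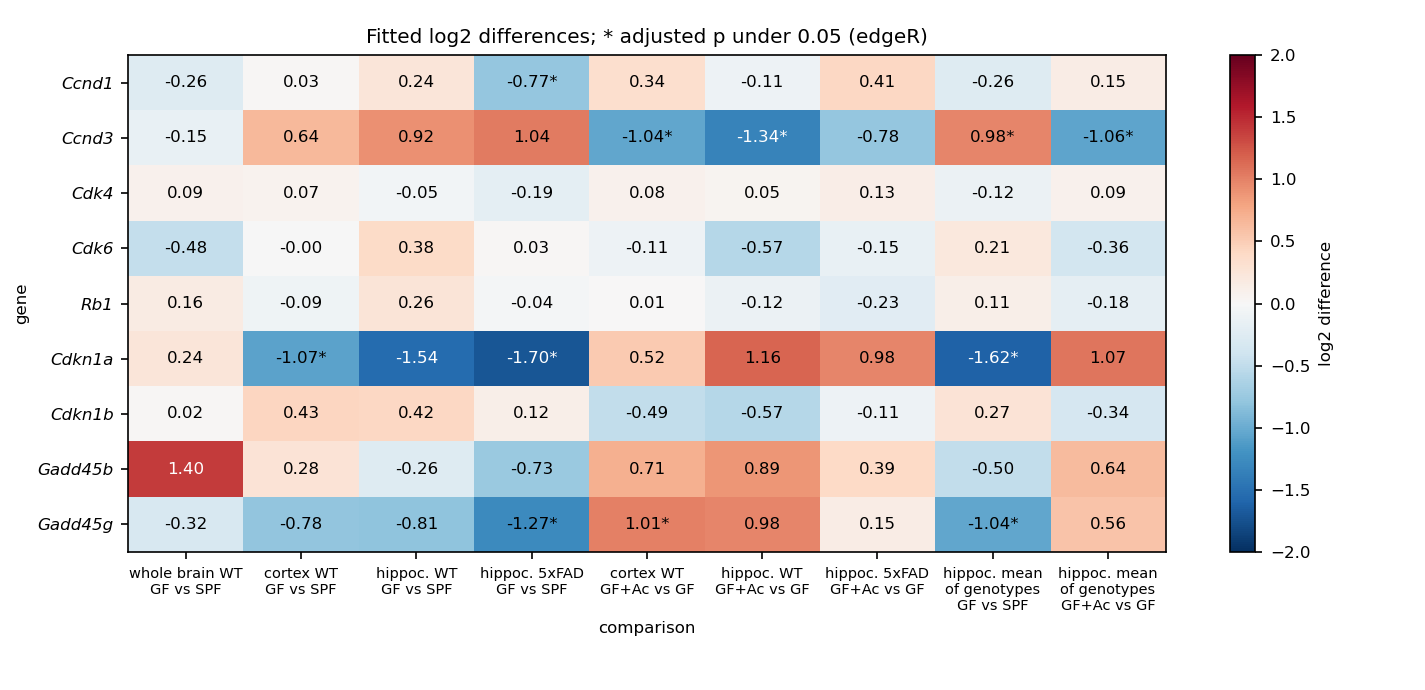
Fitted log2 differences of 9 genes (rows) in 9 comparisons (columns), blue for lower and red for higher in the first-named group; asterisks mark an adjusted p under 0.05 by edgeR. Ccnd3 is positive for GF against SPF and negative for GF+acetate against GF in cortex and hippocampus, with Cdkn1a and Gadd45g of opposite sign. In whole brain, which has no acetate group, GF against SPF was -0.15 for Ccnd3, 0.24 for Cdkn1a and -0.32 for Gadd45g, none of them called.

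Among the cyclins, Ccnd3 gave the clearest pattern: its level was highest in GF mice and lower again on acetate. The gene encodes cyclin D3, the D-type cyclin best known from lymphocytes and other blood lineages. In cortex the SPF libraries 1 to 4 stood at 96.5, 124.6, 146.9 and 114 CPM. GF528, GF529, GF530 and GF532 stood at 186.6, 201, 195.9 and 204 CPM, and GFA518, GFA523, GFA524 and GFA525 at 144.5, 83.2, 74.7 and 61 CPM. The GF libraries all lay above both other groups, and SPF and GF+acetate overlapped.

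In hippocampus GF was also the highest group. The 11 WT hippocampus libraries come from animals that also gave cortex libraries, so the WT results of the regions are not independent. In WT mice SPF1 to SPF4 had 81.45, 99.95, 170.8 and 98.6 CPM of Ccnd3, GF529, GF530 and GF532 had 257.9, 230.4 and 189.8 CPM, and the 4 acetate libraries, in the order of the cortex, 138.2, 66.8, 85.1 and 49.9 CPM. In 5xFAD mice SPF2140, SPF2142, SPF2152 and SPF2153 had 129.9, 133.9, 113.5 and 98.2 CPM, GF526, GF527 and GF531 had 209.4, 277.2 and 276.7 CPM, and GFA519 to GFA522 had 132.7, 156.6, 190.9 and 85.4 CPM. In both genotypes no GF library overlapped a library of the other 2 conditions. GFA518 was the highest of the acetate-treated WT animals in both regions.

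From high to low, mean Ccnd3 levels were 254 CPM in 5xFAD GF, 226 in WT hippocampus GF, 197 in cortex GF, 141 in 5xFAD GF+acetate, 120.5 in cortex SPF, 119 in 5xFAD SPF, 113 in WT hippocampus SPF, 90.8 in cortex GF+acetate and 85 in WT hippocampus GF+acetate. SDs ran from 7.8 CPM in cortex GF to 44.3 CPM in 5xFAD GF+acetate. Neighbours in this order overlapped in their libraries, except that cortex GF lay wholly below 5xFAD GF, which is not its neighbour. The highest 5xFAD acetate library, GFA521 at 190.9 CPM, reached into the ranges of cortex GF and WT hippocampus GF.

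Ccnd3 fell on acetate against GF by 1.04 on the log2 scale in cortex (SE 0.19, adjusted p = 0.014), to 0.486 of the GF level, and by 1.34 in WT hippocampus (SE 0.28, adjusted p = 0.028), to 0.396 of it. In 5xFAD hippocampus the log2 difference was -0.78 (SE 0.27, adjusted p = 0.42). Against SPF, the GF values were log2 0.64 in cortex (SE 0.19, adjusted p = 0.10), 0.92 in WT hippocampus (SE 0.28, adjusted p = 0.13) and 1.04 in 5xFAD hippocampus (SE 0.28, adjusted p = 0.051). Whether these passed depended on the settings. Under other edgeR settings or DESeq2, adjusted p was 0.012 to 0.32 in cortex. It was 0.043 to 0.37 in WT and 0.0045 to 0.19 in 5xFAD hippocampus. Averaged over genotypes, Ccnd3 rose 1.97-fold in GF against SPF (log2 0.98, SE 0.19, adjusted p = 0.0033) and fell on acetate against GF to 0.48 of the level (log2 -1.06, SE 0.19, adjusted p = 0.0037). Acetate against SPF differed by log2 -0.08 there (SE 0.18, adjusted p = 0.97) and by -0.40 in cortex (SE 0.19, adjusted p = 0.71).

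Several of these calls lay near the threshold and changed when any of several libraries was left out. The cortex call of acetate against GF ended without GF528, GF529, GFA523, GFA524 or GFA525 (log2 -1.07 to -0.90, adjusted p = 0.051 to 0.077). The WT hippocampus call ended without GF529, GF530, GFA523, GFA524 or GFA525 (log2 -1.34 to -1.15, adjusted p = 0.069 to 0.11). Without GFA518, Ccnd3 in cortex was lower on acetate than in SPF (log2 -0.72, adjusted p = 0.021), and without WT SPF3 the WT hippocampus passed for GF against SPF (log2 1.19, adjusted p = 0.047). Without GFA518, 5xFAD was also above WT on acetate (log2 1.09, adjusted p = 0.019, against 0.76 and 0.14 with it). Both averaged Ccnd3 calls held with each of the 14 libraries concerned left out in turn (log2 0.92 to 1.12 and -1.23 to -0.97).

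Whole-brain Ccnd3 did not follow. SPF1, SPF3 and SPF4 had 27.6, 24.2 and 21.1 CPM and GF1 to GF5 had 19.3, 21.4, 21.8, 21.3 and 24.7 CPM. The groups overlapped (log2 -0.15, SE 0.14, adjusted p = 0.68). The GF difference of whole brain was not tested against that of the other tissues, which differ from it in age, sex-linked genes and table.

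Bysl, which lies on the opposite strand and overlaps Ccnd3 exons in GENCODE M21, had lower means in GF, 17.8 CPM (SD 2.96) against 25.4 CPM (SD 3.16) in cortex SPF (log2 -0.58, SE 0.17, adjusted p = 0.095), the other way from Ccnd3. In 5xFAD hippocampus on acetate against GF it had the same sign as Ccnd3, with 11.9 CPM (SD 3.02) against 16 CPM (SD 1.07) (log2 -0.36, SE 0.24, adjusted p = 0.85). The pseudogene copy Ccnd3-ps averaged at most 0.259 CPM in any group. Whether counting used strand is not given in the sources used here.

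**Figure D2:**
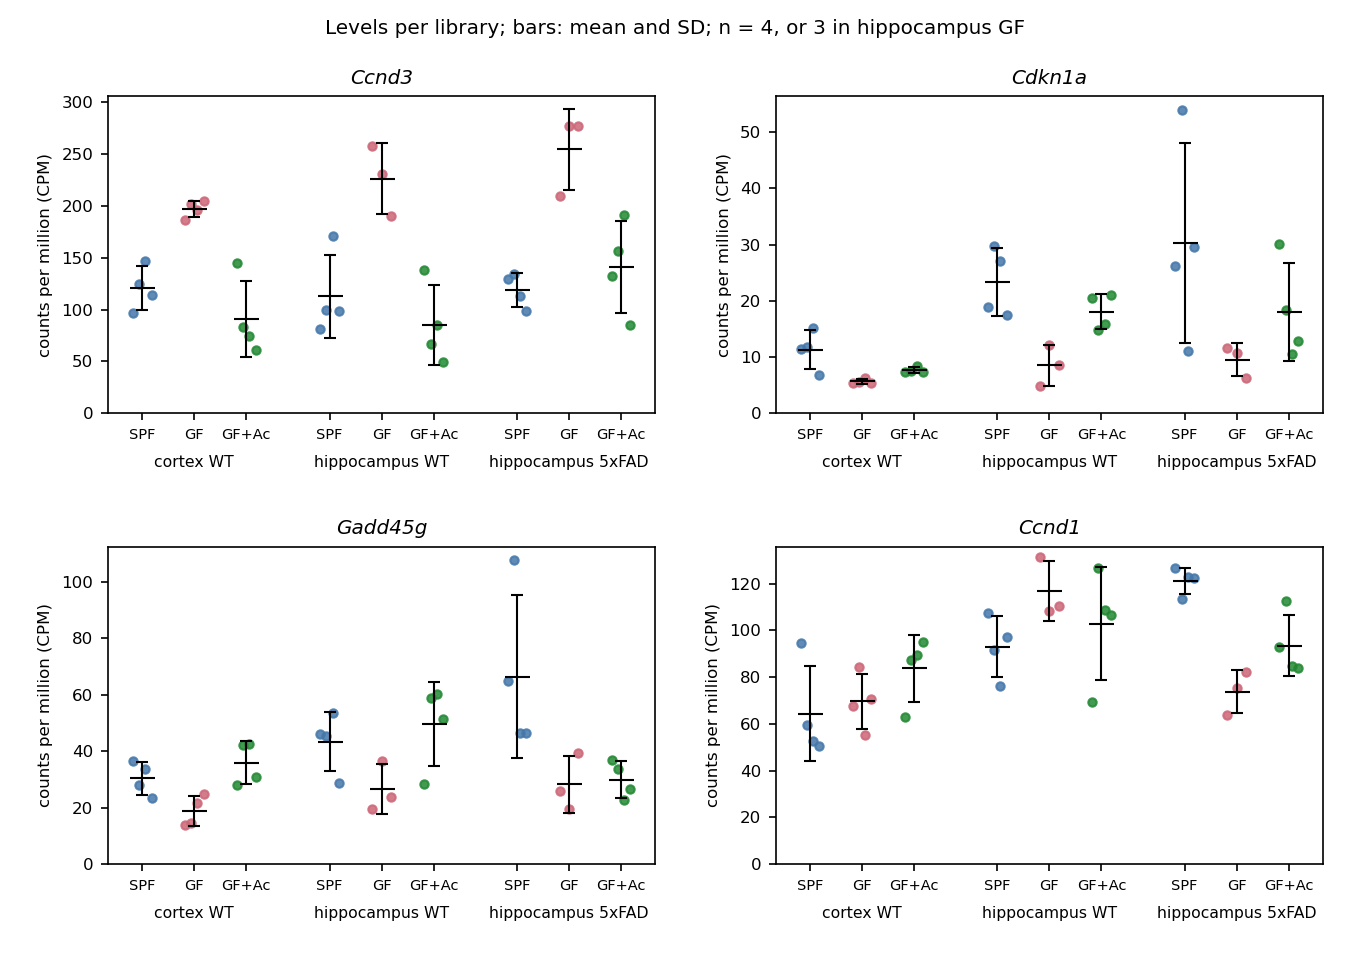
CPM of Ccnd3, Cdkn1a, Gadd45g and Ccnd1 (vertical axes) in each cortex and hippocampus library; points are libraries, bars the mean and SD of 4 libraries, or 3 in hippocampus GF. For Ccnd3 all GF points lie above the SPF and GF+Ac (GF+acetate) points of the same tissue and genotype.

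Ccnd1, encoding cyclin D1, a cyclin induced by mitogens, was called in 1 comparison, GF against SPF in 5xFAD hippocampus. In 5xFAD hippocampus the 4 SPF libraries had 126.6, 113.5, 122.7 and 122.6 CPM, the 3 GF libraries 63.9, 75.2 and 82.4 CPM, and the 4 acetate libraries 92.8, 112.4, 85 and 83.8 CPM. The 3 conditions did not overlap, with acetate between the other two. Ccnd1 fell by 0.77 on the log2 scale in GF against SPF (SE 0.17, adjusted p = 0.013). Leaving out GF526 or GF527 ended the call (adjusted p = 0.081 and 0.076). On acetate against GF the log2 difference was 0.41 (SE 0.16, adjusted p = 0.51), and against SPF -0.36 (SE 0.15, adjusted p = 0.60). LTO1 overlaps Ccnd1 exons on the opposite strand in GENCODE M21, and counts of the pair may be mixed. In 5xFAD hippocampus LTO1 averaged 32.2 CPM (SD 6.17) in SPF and 34.5 CPM (SD 4.46) in GF (log2 0.045, SE 0.26, adjusted p = 0.98).

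In WT hippocampus Ccnd1 ran the other way, from 93.1 CPM (SD 13.1) in SPF to 117 CPM (SD 12.8) in GF (log2 0.24, SE 0.16, adjusted p = 0.59). The 5xFAD response minus the WT response was log2 -1.01 (SE 0.23), which did not pass in edgeR (adjusted p = 0.42) and passed in DESeq2 (log2 -1.02, adjusted p = 0.028). Within GF mice, 5xFAD against WT gave log2 -0.63 (SE 0.17, adjusted p = 0.091). Cortex means were 64.4 CPM (SD 20.4) in SPF, 69.6 (SD 11.9) in GF and 83.7 (SD 14.2) on acetate, with overlapping libraries, and no cortex comparison of Ccnd1 passed. In whole brain Ccnd1 averaged 40.2 CPM (SD 5.32) in SPF and 33.2 CPM (SD 3.75) in GF (log2 -0.26, SE 0.13, adjusted p = 0.37).

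Ccnd2, the cyclin D2 gene, was near the floor of detection. It had 0 to 28 counts per library in 41 libraries and 174 counts (8 CPM) in hippocampus WT GFA518, where the next highest library of the group had 0.199 CPM. The cortex library of the same animal had 0 counts. Ccnd2 did not enter the whole-brain fit and was called nowhere else; its WT hippocampus difference of acetate against SPF (log2 3.56, SE 1.68, adjusted p = 0.60) rested on GFA518.

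Neither kinase gene was called in the 24 comparisons as fitted here. Cdk4 had group means from 97.4 CPM (cortex SPF, SD 7.56) to 113 CPM (5xFAD SPF, SD 13.1) in cortex and hippocampus, 90.7 CPM (SD 4.97) in whole-brain SPF and 95.6 CPM (SD 4.46) in whole-brain GF, and log2 differences within ±0.19 of 0 for all housing and acetate comparisons. Tspan31, which overlaps Cdk4 on the opposite strand in GENCODE M21, averaged 119.5 CPM (SD 7.90) in cortex SPF, above Cdk4, and counts of the pair may be mixed. Cdk6, the more variable kinase gene, averaged 85.8 to 97.4 CPM over the 3 cortex groups. In hippocampus it averaged 112 CPM (SD 30.7) in WT SPF, 153.5 CPM (SD 13.3) in WT GF and 98.5 CPM (SD 19.6) on acetate. The WT GF libraries stood at 138 to 164 CPM and the acetate libraries at 73.6 to 119 CPM, without overlap (log2 -0.57, SE 0.17, unadjusted p = 0.0032, adjusted p = 0.15). Averaged over genotypes this difference was -0.36 (SE 0.12, adjusted p = 0.15). In 5xFAD hippocampus Cdk6 means lay between 129 and 150.1 CPM. Whole-brain Cdk6 was 14.2 CPM (SD 3.74) in SPF and 10.04 CPM (SD 4.09) in GF (log2 -0.48, SE 0.28, adjusted p = 0.46).

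Rb1, the target of these kinases, passed no test. Its group means lay between 55.6 CPM (5xFAD GF+acetate, SD 9.27) and 79.8 CPM (WT hippocampus GF, SD 29.6), and its largest difference by housing or acetate was log2 -0.27 (SE 0.22, adjusted p = 0.96), in 5xFAD acetate against SPF. In GENCODE M21 its exons overlap Rcbtb2 and Lpar6 on the opposite strand. Rcbtb2 was itself higher in cortex GF than SPF (log2 0.37, SE 0.08, adjusted p = 0.020).

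Of the 2 inhibitors, Cdkn1a was low in GF mice. It encodes p21, which stops the cycle after p53 activation. In cortex SPF1 to SPF4 had 11.5, 11.8, 15.1 and 6.74 CPM, the GF libraries 5.31, 5.63, 6.27 and 5.47 CPM, and the acetate libraries 7.42, 7.54, 8.46 and 7.43 CPM, in the order given for Ccnd3. All GF libraries lay below all others. In WT hippocampus SPF had 19, 29.8, 27 and 17.6 CPM, GF 4.91, 12.1 and 8.6 CPM, and acetate 20.5, 14.9, 15.9 and 21.1 CPM. There too GF lay below the rest, in animals that also gave cortex libraries.

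The 5xFAD libraries were more scattered, with 26.3, 54, 11.1 and 29.7 CPM in SPF, 11.6, 10.8 and 6.21 CPM in GF, and 30.1, 18.3, 10.6 and 12.9 CPM on acetate. SPF2152 lay within the GF range, and SPF2142, the highest, was a shallow library. Group means in the order SPF, GF and acetate were 11.3, 5.67 and 7.71 CPM in cortex, 23.3, 8.55 and 18.1 in WT hippocampus, and 30.2, 9.53 and 18 in 5xFAD hippocampus.

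Cdkn1a fell by 1.07 on the log2 scale in cortex GF against SPF (SE 0.23, adjusted p = 0.023), to 0.476 of the SPF level, and by 1.70 in 5xFAD hippocampus (SE 0.43, adjusted p = 0.042), to 0.307 of it. In WT hippocampus the value was -1.54 (SE 0.43, adjusted p = 0.094). Averaged over genotypes it fell by 1.62 (SE 0.30, adjusted p = 0.0019), and this held with each of 14 libraries left out (-1.78 to -1.41). The cortex call ended without SPF1, SPF2, SPF3, GF528, GF529 or GF532 (adjusted p = 0.065 to 0.081). The 5xFAD call ended without SPF2140, SPF2142, SPF2153, GF526, GF527 or GF531 (adjusted p = 0.067 to 0.26).

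On acetate against GF, Cdkn1a differed by log2 0.52 in cortex (SE 0.23, adjusted p = 0.40), 1.16 in WT hippocampus (SE 0.42, adjusted p = 0.26) and 0.98 in 5xFAD hippocampus (SE 0.42, adjusted p = 0.58). The average over genotypes was 1.07 (SE 0.30, adjusted p = 0.071). It passed without GFA521 (log2 1.16, adjusted p = 0.042) and in DESeq2 (adjusted p = 0.013). In whole brain SPF had 12.5, 10.5 and 8.74 CPM and GF 10.3, 16.7, 9.78, 11.4 and 13.8 CPM, overlapping (log2 0.24, SE 0.22, adjusted p = 0.66).

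Cdkn1b, the p27 gene, was called in no comparison. Its means were 10.3 CPM (SD 3.29) in cortex SPF, 14.5 (SD 3.12) in GF and 9.86 (SD 1.86) on acetate, and 15.9 (SD 2.23), 22.5 (SD 6.27) and 14.4 (SD 3.28) in WT hippocampus. GF against SPF gave log2 0.43 in cortex (SE 0.24, adjusted p = 0.48) and 0.42 in WT hippocampus (SE 0.26, adjusted p = 0.55). In 5xFAD hippocampus the 3 means lay between 13.7 and 15.5 CPM. Whole-brain libraries had 2.43 to 4.24 CPM.

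The GADD45 genes differed greatly in level. Gadd45g had 13.9 to 107.8 CPM in cortex and hippocampus, and in cortex it was lower in GF mice than on acetate. SPF1 to SPF4 of cortex had 36.4, 27.9, 33.8 and 23.5 CPM, the GF libraries 13.9, 14.6, 21.6 and 24.7 CPM and the acetate libraries 27.9, 42.1, 42.6 and 30.9 CPM. GF overlapped SPF through GF532 and SPF4 and lay below every acetate library. WT hippocampus had 46.2, 45.2, 53.4 and 28.6 CPM in SPF, 19.5, 36.4 and 23.9 CPM in GF and 28.2, 58.9, 60.2 and 51.3 CPM on acetate, where GFA518 was the low library.

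In 5xFAD hippocampus the acetate libraries lay, by range, with GF rather than with SPF. Acetate against SPF did not pass there (log2 -1.125, SE 0.30, adjusted p = 0.22). SPF libraries had 65, 107.8, 46.4 and 46.5 CPM, GF libraries 25.9, 19.6 and 39.5 CPM, and acetate libraries 36.8, 33.7, 22.6 and 26.7 CPM. All GF and acetate libraries lay below all SPF libraries, and the highest SPF value was that of the shallow library SPF2142. In whole brain Gadd45g averaged 9.47 CPM (SD 2.43) in SPF and 7.5 CPM (SD 2.77) in GF (log2 -0.32, SE 0.30, adjusted p = 0.68).

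Gadd45g rose on acetate against GF in cortex by log2 1.01 (SE 0.21, adjusted p = 0.028), a call that ended without GF528, GF529, GFA523, GFA524 or GFA525 (adjusted p = 0.063 to 0.12). It fell in 5xFAD hippocampus GF against SPF by 1.27 on the log2 scale (SE 0.33, adjusted p = 0.043), a call that ended without SPF2140, SPF2142, GF526, GF527 or GF531 (adjusted p = 0.056 to 0.26). Averaged over genotypes, GF against SPF fell by 1.04 (SE 0.23, adjusted p = 0.0079) and held with each of 14 libraries left out (-1.19 to -0.88). The remaining GF against SPF values were -0.78 in cortex (SE 0.21, adjusted p = 0.073), which passed without SPF4 (log2 -0.90, adjusted p = 0.035), and -0.81 in WT hippocampus (SE 0.32, adjusted p = 0.29).

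On acetate against GF, Gadd45g differed by log2 0.98 in WT (SE 0.32, adjusted p = 0.20) and 0.15 in 5xFAD hippocampus (SE 0.32, adjusted p = 1). The 5xFAD minus WT difference of acetate against SPF was -1.30 (SE 0.41, unadjusted p = 0.0047, adjusted p = 0.52), the difference between genotypes in Gadd45g with the smallest p, and it did not pass. Gadd45b rested on 6 to 86 counts per library, with group means of 0.366 to 3.23 CPM, and no difference of it passed. Its whole-brain means were 0.366 CPM (SD 0.137) in SPF and 0.953 CPM (SD 0.319) in GF (log2 1.40, SE 0.71, adjusted p = 0.38).

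Cortex and hippocampus could be compared within the 11 WT animals that gave both. Of the 10 genes, hippocampus against cortex called 0 in SPF (0.718% of 16706 genes called) and 0 in GF (0.0359%), with 4 and 2 at an unadjusted p under 0.05 and 3 and 2 by DESeq2. On acetate it called 1, Cdkn1a, higher in hippocampus (0.694% called higher, 2.38% in all). The response to GF and the response to acetate were called as differing between regions for 0 of the 10 by edgeR and for 0% of 16706 genes, with 1 and 2 of the 10 at an unadjusted p under 0.05 and 0 by DESeq2.

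Cdkn1a was higher in hippocampus in 10 of 11 animals. The ratio of hippocampus to cortex was 1.64 to 2.61 in SPF, 0.873 to 1.94 in GF and 1.88 to 2.83 on acetate. Within acetate-treated animals, Cdkn1a was 2.25-fold higher in hippocampus than in cortex (log2 1.17, SE 0.23, adjusted p = 0.021). This call ended without GFA518, GFA523 or GFA525 (adjusted p = 0.067 to 0.13). In SPF the value was log2 1.04 (SE 0.23, adjusted p = 0.054) and in GF 0.43 (SE 0.28, adjusted p = 0.60).

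Ccnd1 was higher in hippocampus in all 11 animals, with ratios of 1.14 to 1.92 in SPF, 1.56 to 1.96 in GF and 1.10 to 1.45 on acetate. The log2 differences were 0.54 in SPF (SE 0.13, adjusted p = 0.059), 0.70 in GF (SE 0.14, adjusted p = 0.067) and 0.24 on acetate (SE 0.12, adjusted p = 0.34). Gadd45g and Cdkn1b were each higher in hippocampus in 10 of 11 animals and Cdk6 in 9 (log2 0.65 in GF, SE 0.15, adjusted p = 0.093; 0.0032 by DESeq2 and 0.0029 with no filter on low counts), whereas Ccnd3 was higher in 4 and Rb1 in 3. Ccnd3 ratios stayed between 0.802 and 1.28, so the animals kept similar Ccnd3 levels in both regions.

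**Figure D3:**
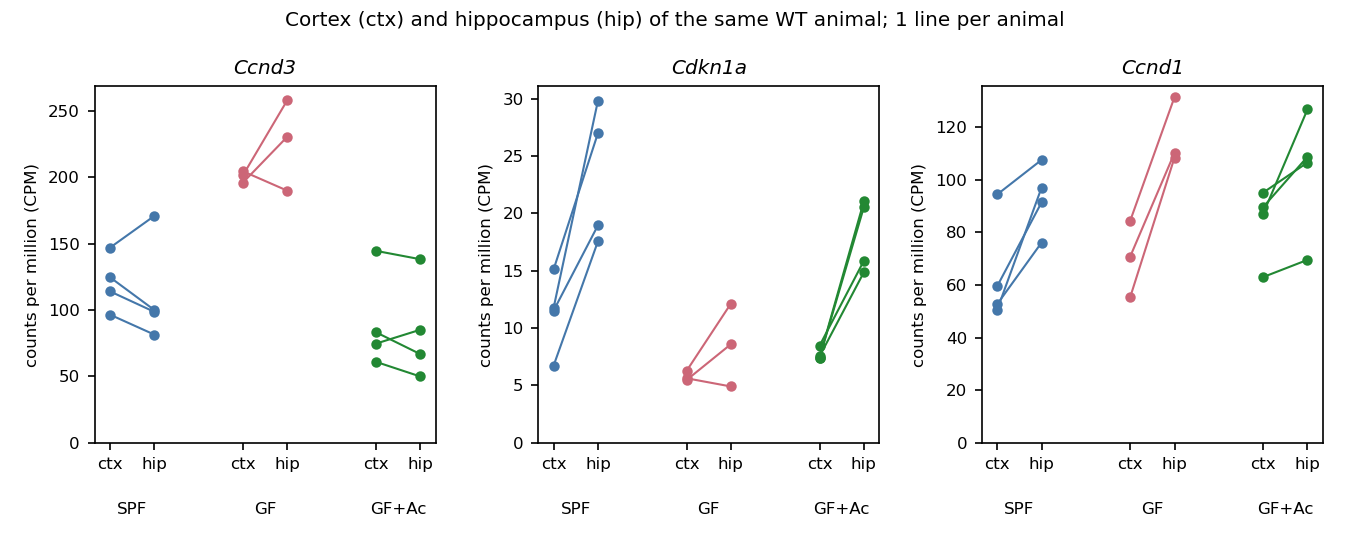
CPM of Ccnd3, Cdkn1a and Ccnd1 (vertical axes) in cortex (ctx) and hippocampus (hip) of 11 WT animals, 1 line each, grouped by condition. Ccnd1 lines rise in all 11 animals and Cdkn1a lines in 10, while Ccnd3 lines are nearly flat and GFA518 is the upper line of the acetate group.

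Levels can be set side by side between genes only per length, as CPM per kilobase of merged exons in GENCODE M21, an approximation since the authors' annotation is not given in the sources used here. On this scale Cdk4, whose counts may include Tspan31, led in cortex SPF with a level of 30, followed by Gadd45g (25.9), Ccnd1 and Ccnd3 (both 13.7), Rb1 (12.4), Cdk6 (6.67), Cdkn1a (3.18), Cdkn1b (2.27), Gadd45b (0.605) and Ccnd2 (0.0199). In cortex GF the level of Ccnd3 was 22.5, second to Cdk4 at 33, and Gadd45g had 15.9. In 5xFAD GF hippocampus Ccnd3 reached 29, beside Cdk4 at 31.6. Whole-brain SPF had Cdk4 at 27.9, Rb1 at 9.44, Ccnd1 at 8.54, Gadd45g at 8.08, Cdkn1a at 2.97 and Ccnd3 at 2.77. On this scale Ccnd1 and Ccnd3 were thus of like level in cortex SPF, and in whole-brain SPF Ccnd1 was the higher. The likeness in cortex rests on the merged lengths, 8775 bases for Ccnd3 and 4709 for Ccnd1, which pool all annotated exons. Which transcripts were present was not examined. Before division by length, cortex SPF means were 120.5 CPM for Ccnd3 and 64.4 CPM for Ccnd1.

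**Figure D4:**
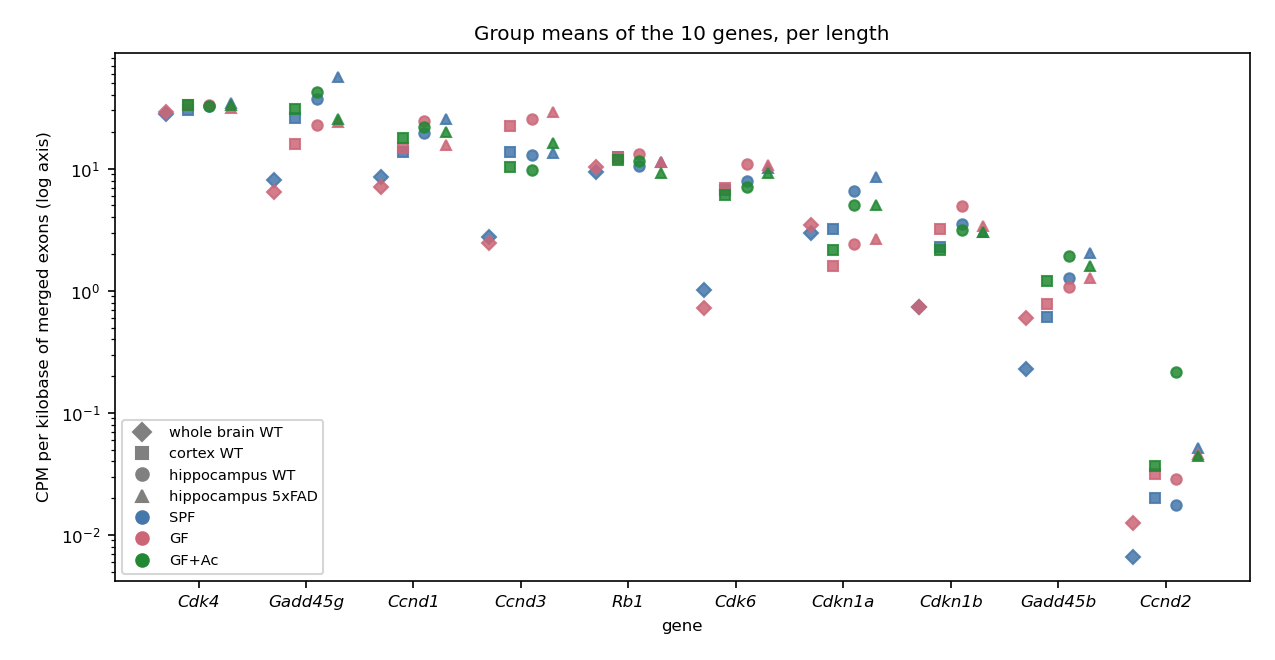
Mean CPM per kilobase of merged exons (vertical, log axis) of the 10 genes in 11 groups; shape gives the tissue and genotype, colour the condition. Within cortex and hippocampus Cdk4 lies between 30 and 34.8, Ccnd3 between 9.69 and 29, and Ccnd2 at 0.218 or below; whole-brain groups come from another table.

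Few other cell-cycle genes were called. Of 24 listed genes of the G1 to S machinery (cyclin E, CDK2, E2F and partners), 0 were called by edgeR in cortex GF against SPF (2 of 22 tested at an unadjusted p under 0.05), in WT hippocampus (6 of 24) and in 5xFAD hippocampus (4 of 24). Over all genes, 1.71%, 0.727% and 1.82% were called there. Averaged over hippocampus genotypes, 1 of 24, Tfdp1, the dimer partner of E2F, fell in GF against SPF (log2 -0.52, SE 0.13, adjusted p = 0.018), and the list's median was -0.17 against -0.00 for all genes. Of 20 further cell-cycle brakes, Trp53, the p53 gene, fell in that contrast (log2 -0.34, SE 0.08, adjusted p = 0.014; list median -0.04). Among 16 of 17 listed p53 targets that were tested, 1, the stress sensor Sesn2, fell (log2 -0.75, SE 0.16, adjusted p = 0.0073; list median 0.04), and 15 did not pass. That averaged contrast was chosen after the values were seen. It called 2.61% of 17063 genes lower, so 1 call in lists of this size is close to that share. In 5xFAD against WT hippocampus Sesn1, a related p53 target, was lower in SPF (log2 -0.59, SE 0.13, adjusted p = 0.032) and on acetate (log2 -0.50, SE 0.13, adjusted p = 0.037). The cyclin G2 gene Ccng2 was lower in 5xFAD than in WT on acetate (log2 -0.45, SE 0.12, adjusted p = 0.045). Over all genes, 5xFAD against WT called 0.568% in SPF and 2.51% on acetate.

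Genes of S and M phase were rare in these cells. The 20 listed genes summed to 140 to 318 CPM over all cortex and hippocampus libraries. In cortex 0 of 18 tested passed for GF against SPF (1.71% of all genes called), with 3 at an unadjusted p under 0.05 (list median log2 -0.11, all genes -0.00). There 1 of 18, the replicative helicase subunit Mcm6, was lower on acetate than in SPF (log2 -2.36, SE 0.41, adjusted p = 0.011; 0.364% of all genes called). Averaged over hippocampus genotypes 2 of 20 fell in GF, Rrm2, a ribonucleotide reductase subunit (log2 -3.74, SE 0.94, adjusted p = 0.020), and Mki67, the proliferation marker (log2 -2.73, SE 0.79, adjusted p = 0.048), with a list median of -0.39. That contrast called 2.61% of all genes lower. Within each genotype, 0 of 20 passed for GF against SPF, with list medians of -0.51 in WT and -0.06 in 5xFAD hippocampus. In each, 2 were at an unadjusted p under 0.05 by edgeR. Over all genes, 0.727% and 1.82% were called there. In GF hippocampus Mki67 was higher in 5xFAD than in WT (log2 5.70, SE 1.32, adjusted p = 0.039; 0.756% of all genes called). These large log2 values have wide SEs. Up to 6 of the 20 listed genes were at 0 in a single WT GF hippocampus library. The values of this list were not recomputed with libraries left out, so their size is uncertain. The 9 listed kinases that act beside GADD45 proteins had 0 calls for averaged GF against SPF (3 at an unadjusted p under 0.05; 4.67% of all genes called). Among them, Map2k3 was lower in hippocampus than in cortex of SPF mice (log2 -0.50, SE 0.10, adjusted p = 0.043; 0.718% of all genes called). Tob2, an antiproliferative factor among the brakes, was lower in hippocampus than in cortex of acetate-treated WT mice (log2 -0.40, SE 0.10, adjusted p = 0.041; 2.38% of all genes called).

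Immediate-early genes and genes induced by tissue dissociation were called in some of the same contrasts. For GF against SPF, the shares of all genes called were 1.82% in 5xFAD hippocampus, 0.727% in WT hippocampus and 4.67% averaged over genotypes. They were 1.71% in cortex and 1.99% in whole brain. For acetate against GF they were 0.973% in cortex and 1.85% in averaged hippocampus, and for 5xFAD against WT in SPF 0.568%. Of 22 listed, 5 were higher (Dusp1, Ier2, Fos, Klf4 and Zfp36) and 1, Hspa1b, lower in 5xFAD GF against SPF, with a list median of log2 0.63; Zfp36 and Hspa1b are named to complete the count. The same contrast averaged over genotypes called 5 higher and 1 lower, with Dusp1, a phosphatase that turns off MAP kinases, at log2 1.38 (SE 0.23, adjusted p = 0.00063). Summed levels of the list in 5xFAD hippocampus were 2745 to 3996 CPM in SPF, 4870 to 5457 in GF and 3837 to 4838 on acetate. In WT hippocampus they were 3881 to 6042, 4717 to 8594 and 4580 to 5296 CPM, overlapping, and 1 of 22, Klf2, was higher in GF than in SPF (log2 1.78, SE 0.37, adjusted p = 0.025). In SPF hippocampus 5 of 22 were lower in 5xFAD than in WT (Fosb, Dusp1, Fos, Junb and, to complete the count, Jund; list median -0.61), so the 5xFAD SPF libraries were themselves low. On acetate against GF, Klf4 (log2 -2.75) and Nr4a1 (log2 -1.59) were lower in cortex, and Dusp1 (log2 -1.05), Klf2 (log2 -1.08) and Klf4 (log2 -1.92) in hippocampus averaged over genotypes. In cortex 2 of 22 were higher in GF than in SPF, Nr4a1 (log2 1.80, SE 0.33, adjusted p = 0.0086) and Klf6 (log2 0.43, SE 0.11, adjusted p = 0.043), and the summed levels overlapped. Whole brain had 2 of 21 tested higher in GF, Egr1 (log2 2.17, SE 0.29, adjusted p = 0.0015) and Nr4a1 (log2 2.03, SE 0.44, adjusted p = 0.031), and 1 lower, Ier5 (log2 -0.59, SE 0.11, adjusted p = 0.015). The part of this list in the results on Ccnd3, Cdkn1a, Gadd45g and Ccnd1 was not tested.

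Summed cell markers were compared by range, without a test. The 10 microglia markers summed to 52620 to 61740 CPM in cortex SPF, 46350 to 52280 in GF and 55440 to 59450 on acetate, and to 54850 to 59430, 46590 to 48290 and 57050 to 58610 in WT hippocampus. In 5xFAD hippocampus the sums were 41800 to 57390, 43480 to 44120 and 47950 to 49380 CPM, the GF range lying inside that of SPF. The 6 astrocyte markers summed to 281 to 384 CPM in cortex SPF, 366.5 to 478.5 in GF and 224 to 314 on acetate, nearly all from Slc1a3, a glutamate transporter. In 5xFAD hippocampus they summed to 242 to 308, 474.7 to 497 and 222 to 344 CPM, and in WT hippocampus to 225 to 297, 333.6 to 459 and 206 to 395 CPM, where GF and acetate overlapped. Gfap was at most 1.53 CPM in every cortex library and at 0 in all WT hippocampus libraries. Border macrophage markers summed to 21.1 to 34.9 CPM in cortex SPF, 9.15 to 11.8 in GF and 9.40 to 12.9 on acetate. In the same order they summed to 11.8 to 26.5, 2.07 to 10.2 and 0.863 to 10.2 CPM in WT hippocampus. In 5xFAD hippocampus the sums were 14.9 to 28, 4.04 to 10.8 and 9.97 to 28 CPM, where acetate reached the SPF range. B cell markers summed to 371 to 725 CPM in cortex and hippocampus, nearly all from Ighm. T and NK cell markers summed to at most 1.76 CPM in any library. Their part in the results was not tested.

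By Pearson correlation of log2 CPM over the 34 cortex and hippocampus libraries, among 11756 genes, Fkbp5 (r = 0.928), Per1 (r = 0.924) and Ddit4 (r = 0.892) were most like Ccnd3. The libraries share animals, conditions and regions, so these values are descriptions. Fkbp5, a co-chaperone of steroid receptors, averaged 224 CPM in cortex SPF, 828 in GF and 151 on acetate, and 188, 710.3 and 149 in WT hippocampus. The clock gene Per1 averaged 28.3, 68.8 and 18.6 CPM in cortex, and the mTORC1 inhibitor Ddit4 3.37, 33.4 and 5.27 CPM. Most like Cdkn1a were Sdf2l1 (r = 0.847), Pon3 (r = 0.819) and Gabarap (r = 0.815), and most like Gadd45g were Dpysl2 (r = 0.815), Pdia6 (r = 0.805) and Hsp90aa1 (r = 0.787). Ccnd1 was followed less closely, with Klf7 (r = 0.737), Nav3 (r = 0.731) and Tet3 (r = 0.644) nearest.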

How the data were processed

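The deposited tables hold raw read counts per gene. The submitters' processing notes name STAR 2.5.2b, featureCounts 1.5.1 and GRCh38, a human build, while the symbols in the tables are those of mouse; no coordinates were taken from the tables. No column was left without a sample (0), and strand use in counting is not given in the sources used here.

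From the counts, edgeR 4.0.16 (R 4.3.3, limma 3.58.1) was run as 4 models: whole brain, cortex, hippocampus and the 22 libraries of 11 WT animals with both regions. Genes passed filterByExpr (minimum count 10), libraries were scaled by TMM, and two-sided quasi-likelihood tests with robust dispersion received Benjamini-Hochberg adjustment across every gene in the fit. SEs are the log2 difference divided by the square root of F. DESeq2 1.42.0, RLE size factors, no filter, fits of just the 2 groups at issue, leaving out each replicate, fits without libraries that stand apart and fits with or without a replicate block were alternatives.

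The genes, lists, markers and motifs were chosen with earlier results of these data known, and the averaged hippocampus contrasts after seeing the values. All 10 genes were always named, with up to 4 called genes of smallest p per list and comparison, and the 3 genes of highest r (prior count 2) for each of 4 members. Btg2, Ccna2 and Ccng1 sit in 2 lists each. Replicates carry separate sample or mouse numbers in the labels. The 61 pairs within groups had chi-square per degree of freedom of 10.09 to 60.25, so no library was a copy of another. Where the labels do not name separate mice, p-values cover just the spread among libraries, part of which may be technical. The numbers 1, 3 and 4 occur in both whole-brain groups, on mice housed differently, and the residuals had r of -0.040 to -0.010. Cortex and hippocampus libraries with the same animal number come from 1 animal, and their residuals had r of 0.002 to 0.352, over 0.1 in 9 of 11, so the region model has the animal as a block. Depth limits Ccnd2 and Gadd45b most. RefSeq promoter windows and GENCODE M21 served for sequences, lengths and overlaps.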

Additional observations from a re-analysis of the deposited data

Results flagged for a closer look

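Of 80 groups of 4 or 5 libraries examined for the 10 genes, 7 held 1 library far from the others (Dixon's test at 95%). Chance gives about 5% for normally distributed values. That rate does not hold for counts near 0, such as those of Ccnd2, so the 7 cannot be set against it. The flagged Ccnd2 libraries were: 8.00 CPM in hippocampus WT GFA518 with the next library at 0.199 CPM, 0.749 CPM in cortex SPF4 with the others at 0, and 0.451 CPM in whole-brain GF4 with the next at 0.0851 CPM. Whole-brain GF5 had 17.1 CPM of Cdk6 against 9.62 CPM in the next. Hippocampus WT GFA523 had 114 CPM of Cdk4 against 103.6 CPM, and cortex GFA524 had 8.46 CPM of Cdkn1a against 7.54 CPM, both small gaps within tight groups. Hippocampus WT SPF4, a shallow library, had 3.92 CPM of Gadd45b against 1.57 CPM. No response of the 10 genes differed between genotypes or regions by edgeR's test at an adjusted p under 0.05.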

How the results depend on the processing

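Of 412 recomputed log2 differences of single genes, 329 kept their direction and side of the threshold, 34 passed newly, 49 no longer passed and 0 changed sign; the cause was not tested. The 3 calls of GF against SPF averaged over hippocampus genotypes stayed 3 under all 7 other settings and with each of 14 libraries left out. The count of genes called moved elsewhere. DESeq2 called 3 (edgeR 1) in cortex GF against SPF, 2 (0) in WT hippocampus GF against SPF, 1 (0) in 5xFAD acetate against SPF, 1 (0) in 5xFAD against WT in GF, 1 (0) in the 5xFAD minus WT response to GF, 2 (1) in averaged acetate against GF, 3 (0) between regions in SPF and 2 (0) in GF. With no filter on low counts the counts were 2 in cortex GF against SPF, 1 (2) in cortex acetate against GF, 0 (1) in WT hippocampus acetate against GF, 1 (3) in 5xFAD GF against SPF, and 2 (0) between regions in SPF and 2 (0) in GF. Fitting only the groups compared gave 0 in WT hippocampus acetate against GF. Without the shallow libraries 5xFAD GF against SPF called 1. Without GF530, GFA518 and SPF2152 the counts were 1 in WT hippocampus GF against SPF, 2 in WT hippocampus acetate against GF, 1 in 5xFAD acetate against SPF, 1 in 5xFAD against WT in GF and 1 on acetate, 3 in averaged acetate against GF and 0 between regions on acetate. Leaving out 1 library gave 0 to 2 calls in cortex for GF against SPF, 0 to 2 there for acetate against GF, 0 to 1 in cortex acetate against SPF, 0 to 1 in WT hippocampus GF against SPF and in acetate against GF, 0 to 3 in 5xFAD GF against SPF, 0 to 1 in 5xFAD against WT on acetate, 1 to 2 in averaged acetate against GF and 0 to 1 between regions on acetate.

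A replicate block in whole brain, where the shared numbers name different mice, left 0 of 9 genes called, while calls over all genes went from 226 to 46. With no replicate block between regions, 0, 0 and 1 genes were called in SPF, GF and acetate, as with the block, and no call changed. Counts near the floor limit Ccnd2 and Gadd45b. Hippocampus depth was lowest in SPF4 and SPF2142, and the 5xFAD calls of Cdkn1a (log2 -1.28, adjusted p = 0.16) and Gadd45g (log2 -0.95, adjusted p = 0.14) ended without them. RLE size factors changed no count by more than 1.5 times.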

Other observations

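The summed level of the 24 listed G1 to S genes was 504 to 558 CPM in cortex SPF, 599 to 639 CPM in GF and 517 to 560 CPM on acetate, so the 4 GF libraries lay above the other 8, although 0 of 22 tested genes of the list passed for GF against SPF by edgeR. In 5xFAD hippocampus the same sums were 546 to 578, at least 589.5 and 530.4 to 582 CPM, again with GF uppermost, and in WT hippocampus 544 to 582, 583 to 693.5 and 510.5 to 572 CPM, although the list's median log2 difference of GF against SPF was -0.27 there. In whole brain the sums overlapped, at 464.5 to 474 CPM in SPF and 463 to 492 CPM in GF. These sums are CPM of the raw library total, without the TMM scaling used in the tests. TMM factors were 1.045 to 1.049 in WT hippocampus GF and 0.966 to 1.001 in SPF, and 1.022 to 1.047 and 0.933 to 1.019 in cortex. In 5xFAD hippocampus they were 1.003 to 1.039 in GF, 0.9792 to 1.006 in SPF and 0.9705 to 0.9935 on acetate. That scaling would lower most GF sums against the other groups. The gaps of WT hippocampus (582 against 583 CPM) and 5xFAD hippocampus (582 against 589.5 CPM) are too narrow to be relied on. Whether GF stays uppermost in cortex after scaling was not examined. The sum was looked at after the values were known and was not tested.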
